A study of Homo sapiens with 27 samples.

Results

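SUM159 is an established human triple-negative breast cancer (TNBC) cell line with a mesenchymal appearance. The comparison described here is between SUM159 cells carrying dCas9-KRAB and gRNA 4 and SUM159 cells carrying dCas9-KRAB with no targeting gRNA (No gRNA), with 3 libraries in each group out of 27 in the series. Both groups were transduced with the same lentiviral vector (pLV-KRAB) and selected with puromycin, so vector and selection were shared and the gRNA differed. Beside them, 2 further SUM159 groups of the same run were used, where the labels do not say what a run was. These were untransduced wild type cells and cells carrying dCas9-KRAB and the pool of all 4 gRNAs against the ZEB1 promoter (All gRNA), again with 3 libraries each. According to the study's methods the replicates were individual clones, so the spread between libraries is a spread between clones of one line. The question was how transcript abundance responds across all genes when ZEB1 is repressed by a single gRNA placed over its canonical start site.

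ZEB1 is a zinc finger homeobox transcription factor that binds E-box motifs in promoters of epithelial genes and recruits corepressors to them. It is one of the best known drivers of the epithelial-to-mesenchymal transition (EMT), in which cells lose junctions, keratins and apicobasal polarity and gain migratory and matrix genes. dCas9-KRAB is a Cas9 without nuclease activity fused to the KRAB repressor domain, which recruits TRIM28 and histone methyltransferases to the DNA at which the gRNA places it, so that transcription is repressed without a cut.

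The site of gRNA 4 is shown because the gRNA is the designed difference between the 2 groups. The 20 bases have 1 exact match in GRCh38, on the plus strand of chromosome 10 from 31319209 to 31319228. Bases are in lower case, and the capitals in the near matches further down mark mismatches.
gRNA 4 site, chr10:31319209-31319228, plus strand: agcatttagacacaagcgag
The PAM that follows is agg. Counted from the canonical GENCODE start of ZEB1 at 31319216, the site covers positions -7 to 12, so it lies across that start. Other annotated ZEB1 starts lie further upstream. The GENCODE gene begins at 31318495, and the RefSeq bases before the start end at 31318416. The annotation places it in the UTR of ZEB1 transcripts and within the antisense gene ZEB1-AS1, with the middle of the site 472.5 bases from the canonical ZEB1-AS1 start at 31319691.

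Values are given as CPM, estimated counts scaled to the size of the library with TMM, which can be compared between libraries but not between genes of different length. Library totals were between 17114434 and 18401020 estimated counts in the 6 libraries compared, and the correlation of log values between libraries of a group was between 0.980 and 0.985. Of 57165 genes in the table, 15147 had enough counts to be tested. ESR1 was at or below 0.149 CPM and PGR at 0 in the 12 SUM159 libraries of the run, VIM was at 3709 ± 118 CPM (SD, n = 3) in No gRNA and 3654 ± 245 CPM with gRNA 4, and CLDN3 was at 0. Of 12 markers of other cell types, 9 did not pass the filter on low counts, among them PTPRC, a leukocyte marker, at 0 to 0.128 CPM. The 3 that did pass it were at a few CPM or less, and of these CD14 was lower with gRNA 4 by limma's moderated test, at 1.09, 1.40 and 1.01 CPM in No gRNA and 0.255, 0.266 and 0.812 CPM with gRNA 4. Fewer cells with a transcript and less of it per cell cannot be told apart in these bulk libraries.

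ZEB1 (ENSG00000148516, chromosome 10, 31318495 to 31529814, plus strand) was at 68.7, 74.8 and 70.8 CPM in No gRNA and 4.40, 3.12 and 2.47 CPM with gRNA 4. All 3 gRNA 4 libraries lay far below every No gRNA library, and the gRNA 4 libraries spread from 2.47 to 4.40 CPM. The group means were 71.4 ± 3.10 and 3.33 ± 0.983 CPM (SD, n = 3), and the log2 fold change was -4.45 ± 0.19 (SE, adjusted p = 5.99e-06 by TREAT). The exact two-sided permutation test of 3 against 3 libraries gave p = 0.1, the smallest it can give. With wild type as the control the log2 fold change was -4.57. ZEB1-AS1, transcribed in the opposite direction from the same promoter region, was at 10.3, 10.7 and 10.0 CPM in No gRNA and 5.09, 8.25 and 5.00 CPM with gRNA 4. The 2 groups did not overlap, but the log2 fold change of -0.80 ± 0.27 (SE) passed neither TREAT (adjusted p = 1) nor the moderated test (adjusted p = 0.0854). The strand of the libraries is not given in the sources used here, so reads of ZEB1 and ZEB1-AS1 where they overlap cannot be told apart. Of 6 other listed genes near ZEB1 on chromosome 10, none was called, and MAP3K8 was lower by the moderated test, at -0.87 (moderated adjusted p = 0.00965), from a mean of 8.62 to 4.68 CPM.

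Against No gRNA, TREAT called 59 genes at an adjusted p under 0.05 for an absolute log2 fold change above 1, which is 0.390% of genes tested. Of these, 45 were higher with gRNA 4 (0.297%) and 14 were lower (0.0924%). The moderated test against 0 from the same fit called 925 genes higher (6.11%) and 743 lower (4.91%). With an absolute log2 fold change over 1 required beside the moderated test, 215 were higher (1.42%) and 188 lower (1.24%). Other tests with the threshold of 1 built in were run on the same libraries and filtered genes. edgeR's glmTreat called 61 higher and 27 lower, and DESeq2 56 higher and 21 lower. Some rises, such as EPCAM and SPINT1, passed the filter on low counts only through the groups with a targeting gRNA. Nothing is therefore read from the balance of rises and falls. The median log2 fold change over all genes tested was -0.000667. Counts of called genes in the lists below are to be set beside these shares over all genes. The lists were chosen with earlier results of these data known, so nothing is read from those counts. In all 59 called genes the 3 gRNA 4 libraries lay above or below all 3 No gRNA libraries, a separation that 29.5% of genes tested showed. In the plot of all genes SPINT1 has the largest called rise, and ZEB1 has the largest called fall but for ENSG00000277196, a gene near 1 CPM.

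**Figure D1:**
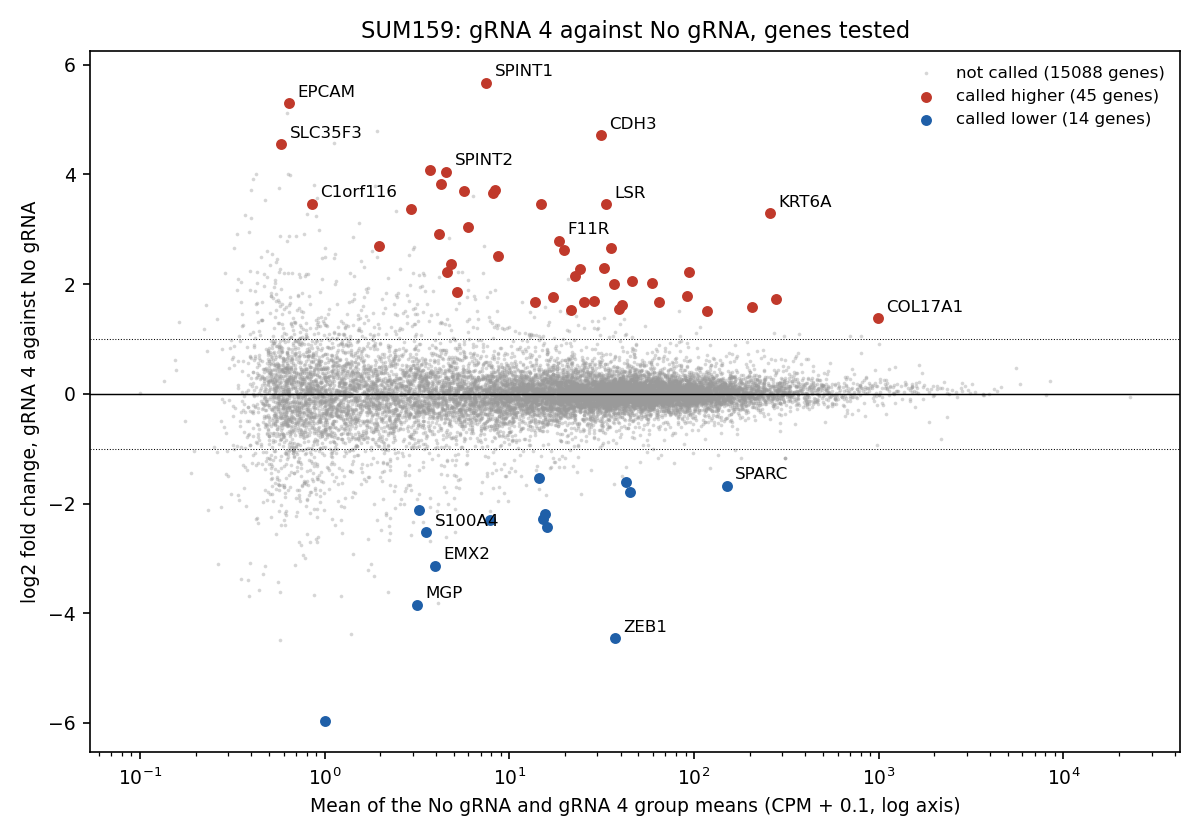
Log2 fold change of gRNA 4 against No gRNA (vertical axis) against the mean of the 2 group means in CPM with 0.1 added (horizontal log axis) for the 15147 genes tested; red points are the 45 genes called higher, blue points the 14 called lower and grey points the rest, and dotted lines mark log2 fold changes of 1 and -1. SPINT1 is the highest of the red points at 5.67, and ZEB1 stands apart among the blue points at -4.45.

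The largest called rise was that of SPINT1. SPINT1 (chromosome 15, 40844018 to 40858207, plus strand) encodes HAI-1, a Kunitz-type inhibitor that holds membrane serine proteases such as matriptase in check. It was at 0.170, 0.246 and 0.385 CPM in No gRNA and 12.1, 15.2 and 16.2 CPM with gRNA 4, a log2 fold change of 5.67 ± 0.44 (SE, adjusted p = 1.31e-04 by TREAT). SPINT2 (chromosome 19, 38244035 to 38292615, plus strand), which encodes the related inhibitor HAI-2, was at 0.460, 0.480 and 0.456 CPM in No gRNA and 5.50, 9.96 and 9.90 CPM with gRNA 4, a log2 fold change of 4.05 ± 0.52 (SE, adjusted p = 0.0142 by TREAT). The first gRNA 4 library held less SPINT2 than the other two, yet stood well above all controls. ST14, the gene of matriptase itself, was at 0 in every library of the 4 groups. TFPI2, a Kunitz inhibitor secreted into the matrix, rose from 129 ± 11.3 to 428 ± 23.9 CPM (SD, n = 3), and SLPI, an inhibitor of leukocyte elastase, from 14.6 ± 1.17 to 58.6 ± 2.92 CPM. Of 10 listed membrane serine proteases and their inhibitors, the 5 proteases HPN, PRSS22, PRSS8, ST14 and TMPRSS4 had too few counts to be tested. SPINT1 and SPINT2 passed the filter on low counts only through the groups with a targeting gRNA, so nothing is read from how many of the list were called. SERPINB5, the remaining inhibitor tested, passed the moderated test upward at 0.66. PI3, the elastase inhibitor elafin encoded near SLPI on chromosome 20, was outside the list and rose by 2.66.

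EPCAM (chromosome 2, 47345158 to 47387601, plus strand), an epithelial adhesion molecule, had 0 counts in each No gRNA library and was at 0.991, 0.920 and 1.33 CPM with gRNA 4. Set against a floor of 3 counts per library its mean was at least 6.45-fold higher, and TREAT gave an adjusted p of 8.13e-04. CDH3 (chromosome 16, 68636189 to 68727468, plus strand), which encodes P-cadherin, was at 2.52, 3.43 and 1.33 CPM in No gRNA and 56.2, 57.0 and 66.4 CPM with gRNA 4, a log2 fold change of 4.72 ± 0.24 (SE, adjusted p = 6.54e-06 by TREAT). Every gRNA 4 library was more than 10-fold above the highest control library. These 2 were the called genes among 8 tested of the adherens junction, where NECTIN1 also passed the moderated test, at 0.62 (moderated adjusted p = 8.56e-05), as did CTNNB1 at 0.17 (moderated adjusted p = 0.0356). EPCAM passed the filter on low counts only through the groups with a targeting gRNA, so nothing is read from how many of this list were called. CDH1, which encodes E-cadherin, had too few counts to be tested, at 0, 0.0240 and 0.0286 CPM in No gRNA and 0.239, 0.0502 and 0.318 CPM with gRNA 4. The 2 groups did not overlap for CDH1, but the values correspond to a handful of counts per library.

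At the tight junction, F11R and LSR were called among 11 genes tested, beside 0.390% of all genes tested. F11R (chromosome 1, 160995211 to 161021343, minus strand) encodes the junctional adhesion molecule JAM-A and was at 5.26, 4.17 and 4.51 CPM in No gRNA and 33.7, 34.8 and 28.8 CPM with gRNA 4, a log2 fold change of 2.79 ± 0.16 (SE, adjusted p = 1.19e-04 by TREAT). LSR (chromosome 19, 35248330 to 35267964, plus strand), a receptor that recruits tricellulin to the points where 3 cells meet, was at 2.73, 7.22 and 8.24 CPM in No gRNA and 55.5, 69.7 and 56.6 CPM with gRNA 4, a log2 fold change of 3.46 ± 0.28 (SE, adjusted p = 6.58e-04 by TREAT). CXADR passed the moderated test at 2.09 (moderated adjusted p = 0.00711) with unequal libraries, 38.3, 42.7 and 19.8 CPM with gRNA 4. CLDN1 went the other way in the moderated test, at -1.12 (moderated adjusted p = 8.74e-07), from a mean of 90.4 to 41.8 CPM. The list's median was 0.47. MAP7 (chromosome 6, 136342281 to 136550819, minus strand), a microtubule-binding protein of epithelia, was at 1.25, 1.25 and 0.999 CPM in No gRNA and 14.4, 13.9 and 16.7 CPM with gRNA 4, a log2 fold change of 3.66 ± 0.25 (SE, adjusted p = 1.26e-04 by TREAT). It was the one call among 9 tested genes of polarity and apical trafficking, whose median was -0.12, and PATJ, a scaffold of the Crumbs complex, passed the moderated test at 1.07.

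Genes of cell anchoring were also among the calls. COL17A1 (chromosome 10, 104031286 to 104085880, minus strand), the transmembrane collagen of the hemidesmosome, was at 567, 538 and 542 CPM in No gRNA and 1401, 1425 and 1448 CPM with gRNA 4, a log2 fold change of 1.38 ± 0.04 (SE, adjusted p = 3.90e-04 by TREAT). Although it had the smallest change of the called genes, its libraries varied so little that its standard error was also the smallest. LAMB3, a chain of laminin-332, rose from 104 ± 7.38 to 310.0 ± 20.8 CPM (SD, n = 3). Of 9 genes of laminin-332 and the hemidesmosome, all tested, these 2 were called, beside 0.390% of all genes tested. ITGB4 and LAMA3 passed the moderated test at 0.56 and 0.54. In the desmosome DSP, the plakin that ties desmosomes to keratin filaments, rose from 61.0 ± 1.46 to 174 ± 4.61 CPM and was the one call of 9 tested. PKP3, JUP and PERP passed the moderated test upward at 1.08, 0.60 and 0.45, and PPL downward at -2.00. Among 5 gap junction genes tested, GJB5, GJB2 and GJA1 passed the moderated test at 1.95, 1.46 and 0.50. The gap junction median was 1.46. KRT6A (chromosome 12, 52487176 to 52493257, minus strand), a keratin of activated and stratified epithelium, was at 41.9, 51.1 and 50.0 CPM in No gRNA and 441, 429 and 531 CPM with gRNA 4, a log2 fold change of 3.29 ± 0.15 (SE, adjusted p = 5.99e-06 by TREAT). It was called alone among 11 keratins tested, with KRT18 higher at 0.56 and KRT7 lower at -0.37 in the moderated test. KRT6A has near-identical copies, so its count is uncertain where reads could be split among them.

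Transcription factors of epithelial identity responded in part. EHF (chromosome 11, 34621093 to 34663288, plus strand), an ETS factor of glandular epithelia, was at 1.43, 0.530 and 0.592 CPM in No gRNA and 10.6, 9.81 and 10.7 CPM with gRNA 4, a log2 fold change of 3.70 ± 0.31 (SE, adjusted p = 6.42e-04 by TREAT). EHF was a called member of a list of which 12 epithelial factors were tested. TP63 passed the moderated test upward at 0.75, and KLF4 and TFAP2C downward at -0.45 and -0.50. Against wild type TP63 was lower with gRNA 4, at -0.37 (moderated adjusted p = 6.28e-05), and KLF4 and TFAP2C were again lower, at -0.78 and -0.65. GRHL2, OVOL1 and OVOL2, further factors of epithelial identity, had too few counts, with no library of either group above 0.103 CPM. Of 4 splicing regulators tested none was called. ESRP1, which drives epithelial exon choice, was at 0.651, 0.522 and 2.63 CPM in No gRNA and 4.15, 6.55 and 2.26 CPM with gRNA 4 and passed the moderated test at 1.98 (moderated adjusted p = 0.0469) although the groups overlapped. RBM47 was at 1.38, 1.43 and 1.45 CPM in No gRNA and 14.3, 22 and 2.52 CPM with gRNA 4, so that its log2 fold change of 2.69 had a standard error of 1.28 and passed neither test.

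Other epithelial genes and genes with the largest rises had more varied roles. AQP3 (chromosome 9, 33441156 to 33447596, minus strand), a channel for water and glycerol in basolateral membranes, was at 2.26, 2.03 and 3.08 CPM in No gRNA and 26.6, 29.4 and 25.4 CPM with gRNA 4, a log2 fold change of 3.47 ± 0.16 (SE, adjusted p = 5.99e-06 by TREAT). AQP9, a related channel, was at 0.370, 0.993 and 0.288 CPM in No gRNA and 5.49, 4.80 and 5.04 CPM with gRNA 4, a log2 fold change of 3.36 ± 0.36 (SE, adjusted p = 0.00575 by TREAT). S100A9 (chromosome 1, 153357854 to 153361023, plus strand), a subunit of calprotectin, was at 0.218, 0.965 and 0.640 CPM in No gRNA and 7.40, 7.02 and 8.61 CPM with gRNA 4, a log2 fold change of 3.82 ± 0.34 (SE, adjusted p = 9.23e-04 by TREAT). Its partner S100A8 had too few counts to be tested. BCL2A1, a member of the BCL2 family that restrains apoptosis, was at 0.297, 0.452 and 0.406 CPM in No gRNA and 7.62, 7.16 and 5.90 CPM with gRNA 4, a log2 fold change of 4.08 ± 0.33 (SE, adjusted p = 3.90e-04 by TREAT). ANKRD22 was at 0.908, 1.54 and 1.05 CPM in No gRNA and 14.9, 17.9 and 13.3 CPM with gRNA 4, a log2 fold change of 3.72 ± 0.27 (SE, adjusted p = 1.82e-04 by TREAT). All of these were separated by several-fold from the highest No gRNA library. Wild type cells held more ANKRD22 than No gRNA, at 3.93, 5.72 and 5.02 CPM, and its log2 fold change against wild type was 1.66.

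Of the genes with the largest rises, SLC35F3 and C1orf116 rested on few counts. SLC35F3, a member of a solute carrier family, was at 0.0562, 0 and 0 CPM in No gRNA and 1.22, 0.917 and 0.690 CPM with gRNA 4, and had 1 count in all over the No gRNA libraries and 50 over the gRNA 4 libraries. The ratio of these counts, scaled to library size, was 50.4 (95% exact interval 8.63 to 2028, counting error only), and the fitted log2 fold change was 4.55 ± 0.58 (SE, adjusted p = 0.00979 by TREAT). C1orf116 was at 0.198, 0.0687 and 0.0645 CPM in No gRNA and 1.83, 1.15 and 1.22 CPM with gRNA 4, a log2 fold change of 3.47 ± 0.44 (SE, adjusted p = 0.0211 by TREAT). CDS1, an enzyme that makes CDP-diacylglycerol, and TSPAN13, a tetraspanin, rose by 1.77 and 2.15 and were the called members of 8 other epithelial genes tested, whose median was 0.82. In that list SH2D3A passed the moderated test at 2.41, LCN2 at 0.87 and SFN at 0.78. The remaining called rises outside the lists were between 1.52 for PHEX, an endopeptidase gene, and 2.91 for CYTH4, a guanine nucleotide exchange factor for ARF proteins, and included the triggering receptor TREM1 (2.02), WNT7B (2.36), THBD, which encodes thrombomodulin (1.67), ARG2, a mitochondrial arginase (1.62), SERINC2 (1.78), RAB11FIP4 (2.51), KIAA0319 (2.70), DNER (1.55), PTGS2, which encodes the cyclooxygenase COX-2 (2.22), and UGT1A6 (1.68). UGT1A6 shares exons with the other UGT1A genes, so its count is uncertain. ENSG00000236453, which has no symbol here, rose by 2.06 and lies on the same part of chromosome 7 as TFPI2, from 94022833 to 94066661, with TFPI2 from 93885396 to 93890753.

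**Figure D2:**
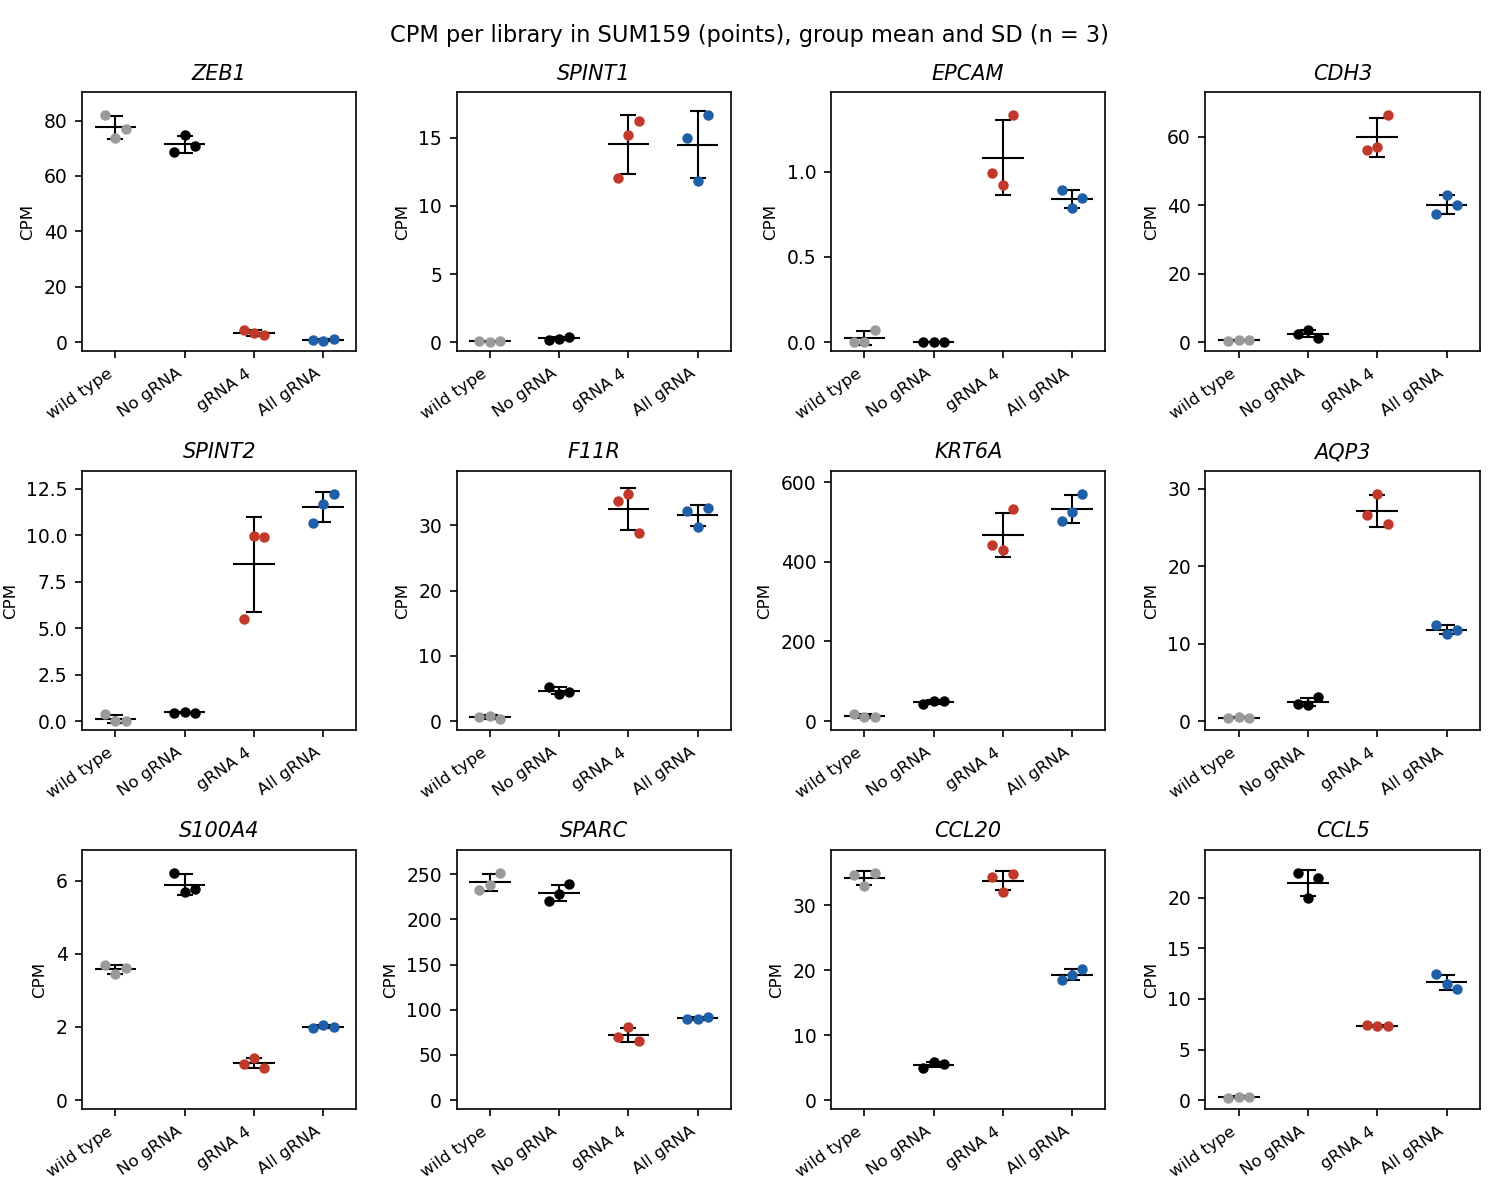
CPM of 12 called genes in each SUM159 library of the run, on linear axes that start near 0, with 1 point per library and the mean and SD of each group (n = 3) drawn as a line and a bar. ZEB1 fell to 3.33 ± 0.983 CPM with gRNA 4, the gRNA 4 libraries of CCL20 sit at the wild type level, and those of CCL5 lie between wild type and No gRNA.

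Signalling genes were also among the rises. Of 17 inflammatory cytokines and chemokines tested, 3 were called higher and 1 lower. Over all genes tested TREAT called 0.297% higher and 0.0924% lower. CCL20, a ligand of CCR6, was at 4.98, 5.82 and 5.63 CPM in No gRNA and 34.4, 32.1 and 34.9 CPM with gRNA 4, a log2 fold change of 2.62 ± 0.10 (SE, adjusted p = 5.99e-06 by TREAT). IL1B rose from 11 ± 0.476 to 54.3 ± 5.12 CPM (SD, n = 3) and CSF3, which encodes G-CSF, from 33.1 ± 3.38 to 155 ± 19.9 CPM. CXCL8, IL1A and LIF passed the moderated test upward at 0.66, 0.63 and 0.67, and CSF1, CCL2 and IL32 downward at -1.18, -3.29 and -0.19. The list's median was 0.63 against No gRNA and -0.93 against wild type. The EGF receptor ligands HBEGF and AREG were called among 10 genes of the EGF family tested, at 1.67 and 1.70. EREG and TGFA passed the moderated test at 1.1 and 0.76, while EGFR had a log2 fold change of 0.02. EGR1, an immediate early transcription factor, was at 8.29, 7.21 and 9.28 CPM in No gRNA and 37.3, 41.0 and 41.6 CPM with gRNA 4, a log2 fold change of 2.27 ± 0.12 (SE, adjusted p = 1.19e-04 by TREAT), and was the one call of 14 immediate early genes tested. FOS, FOSB, DUSP6 and IER2 passed the moderated test upward, at 1.90, 1.26, 1.2 and 0.73.

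The 14 falls held fewer genes with a shared role. MGP (chromosome 12, 14880864 to 14885857, minus strand), an inhibitor of calcification, was at 5.89, 5.02 and 6.14 CPM in No gRNA and 0.187, 0.433 and 0.611 CPM with gRNA 4, a log2 fold change of -3.84 ± 0.44 (SE, adjusted p = 0.00654 by TREAT). EMX2 (chromosome 10, 117542445 to 117549546, plus strand), a homeobox transcription factor, was at 7.004, 6.74 and 7.05 CPM in No gRNA and 0.740, 1.01 and 0.600 CPM with gRNA 4, a log2 fold change of -3.13 ± 0.28 (SE, adjusted p = 0.00158 by TREAT). S100A4 (chromosome 1, 153543613 to 153550136, minus strand), a calcium-binding protein linked with motility, was at 6.22, 5.70 and 5.76 CPM in No gRNA and 0.982, 1.15 and 0.882 CPM with gRNA 4, a log2 fold change of -2.53 ± 0.17 (SE, adjusted p = 5.29e-04 by TREAT). It moved opposite to S100A9 in a family of which 11 were tested, 7 passed the moderated test upward and 2 downward. S100A9 passed the filter on low counts only through the groups with a targeting gRNA, so nothing is read from these counts. SPARC (chromosome 5, 151661096 to 151686975, minus strand), a matricellular glycoprotein that binds collagen, was at 221, 228 and 239 CPM in No gRNA and 69.5, 81.2 and 65.3 CPM with gRNA 4, a log2 fold change of -1.68 ± 0.07 (SE, adjusted p = 3.51e-04 by TREAT). CCDC80, a secreted matrix protein, was at 29.8, 27.2 and 22.7 CPM in No gRNA and 7.75, 5.02 and 2.94 CPM with gRNA 4, a log2 fold change of -2.43 ± 0.26 (SE, adjusted p = 0.0227 by TREAT), with the gRNA 4 libraries spread over more than 2-fold.

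SPARC and CCDC80 were the called members of 19 mesenchymal and matrix genes tested. The list's median was -0.51 against No gRNA and -0.07 against wild type. By the moderated test 9 of the 19 were lower, which included COL3A1 (-2.71), COL5A1 (-1.64), COL6A1 (-0.82), COL1A1 (-0.75), LOX (-0.57), CDH2, which encodes N-cadherin (-0.52), and FN1, which encodes fibronectin (-0.51). The proteoglycans VCAN and DCN passed it upward at 1.28 and 1.5. Over all genes tested it passed 6.11% upward and 4.91% downward. VIM, the main mesenchymal intermediate filament, was at 3627, 3844 and 3656 CPM in No gRNA and 3392, 3878 and 3693 CPM with gRNA 4, and its log2 fold change was -0.02 (moderated adjusted p = 0.838).

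Other falls were in genes of diverse function. AFF2 (chromosome X, 148500617 to 149000663, plus strand), a nuclear factor of transcription elongation, was at 25.7, 25.6 and 24.0 CPM in No gRNA and 5.96, 5.39 and 4.28 CPM with gRNA 4, a log2 fold change of -2.27 ± 0.15 (SE, adjusted p = 7.15e-04 by TREAT). LAPTM5, a lysosomal membrane protein best known from leukocytes, was at 13.3, 12.8 and 12.5 CPM in No gRNA and 2.82, 2.35 and 2.61 CPM with gRNA 4, a log2 fold change of -2.30 ± 0.18 (SE, adjusted p = 0.00295 by TREAT). NEBL, an actin-binding protein of the nebulin family, was at 69.4, 71.0 and 68.4 CPM in No gRNA and 18.6, 21.6 and 20.6 CPM with gRNA 4, a log2 fold change of -1.78 ± 0.07 (SE, adjusted p = 1.26e-04 by TREAT). ENPP2, which encodes autotaxin, was at 60.9, 68.8 and 64.4 CPM in No gRNA and 21.2, 20.7 and 21.3 CPM with gRNA 4, a log2 fold change of -1.61 ± 0.07 (SE, adjusted p = 8.83e-04 by TREAT). CCL5, a chemokine that draws T cells, was at 22.5, 19.99 and 21.9 CPM in No gRNA and 7.44, 7.30 and 7.29 CPM with gRNA 4, a log2 fold change of -1.54 ± 0.11 (SE, adjusted p = 0.0376 by TREAT). In each of these the 2 groups were separated by a gap wider than the range of either.

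Of the 14 falls, 3 were without a symbol. ENSG00000260604 (chromosome 6, 3904920 to 3912072, minus strand) was at 26.0, 25.3 and 24.5 CPM in No gRNA and 5.96, 4.71 and 6.04 CPM with gRNA 4, a log2 fold change of -2.18 ± 0.11 (SE, adjusted p = 1.34e-04 by TREAT). ENSG00000250509 (chromosome 5, 180416949 to 180443240, plus strand) was at 5.78, 4.71 and 4.91 CPM in No gRNA and 0.973, 1.28 and 1.23 CPM with gRNA 4, a log2 fold change of -2.12 ± 0.22 (SE, adjusted p = 0.0339 by TREAT). ENSG00000277196, which was not found in the annotation used, was at 1.52, 1.64 and 2.27 CPM in No gRNA and at 0, 0 and 0.00342 CPM with gRNA 4. Its 97 summed counts in No gRNA against none after rounding with gRNA 4 place it at least 10.7-fold lower, set against a floor of 3 counts per library (TREAT adjusted p = 0.00573). It was at 0.0824 CPM on average in wild type.

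Other lists had no called member. Of 9 tested EMT transcription factors other than ZEB1, ZEB2 was at 53.5 ± 5.38 CPM (SD, n = 3) in No gRNA and 55.6 ± 2.23 CPM with gRNA 4. SNAI2 and TWIST1 passed the moderated test upward at 0.22 (moderated adjusted p = 0.0436) and 0.82 (moderated adjusted p = 0.0377), and their list's median was 0.09. Against wild type SNAI2 was lower with gRNA 4, at -0.93 (moderated adjusted p = 1.56e-07), and TWIST1 was at 0.44 (moderated adjusted p = 0.1). Of 19 genes of TGF-beta signalling, TGFBI and LTBP2 passed the moderated test downward at -0.83 and -1.81, and TGFBR2 and ID1 upward at 0.41 and 0.68. Of 18 interferon-stimulated genes, 4 passed it downward, IFIT3 at -1.43, IFIT1 at -1.28, IFIT2 at -1.18 and OASL at -0.81. Against wild type the median of the same list was 1.30, compared with -0.07 against No gRNA. For IFIT3 the mean was 2.17 CPM in wild type, 33.5 CPM in No gRNA and 12.5 CPM with gRNA 4. Of 20 proliferation genes, 3 passed the moderated test upward and 1 downward, with a median of 0.11 and MKI67 at 0.24, CCND1 at 0.05 and TOP2A at 0.10. Of 11 tested p53 targets and growth arrest genes, CDKN1A and FAS passed it upward at 0.24 and 0.54 and BAX downward at -0.28. Among 12 genes of the KRAB corepressor machinery CBX5, MTA2 and CBX1 passed it downward at -0.38, -0.31 and -0.36, and TRIM28 had a log2 fold change of -0.11. In all, 30 of 266 tested genes on the 26 lists were called, 25 higher and 5 lower, and 29 called genes were on no list. Over all genes tested TREAT called 0.390%, and the moderated test passed 6.11% upward and 4.91% downward. The lists were chosen with earlier results of these data known. EPCAM, SPINT1, SPINT2 and S100A9 also passed the filter on low counts only through the groups with a targeting gRNA. Nothing is read from the total.

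**Figure D3:**
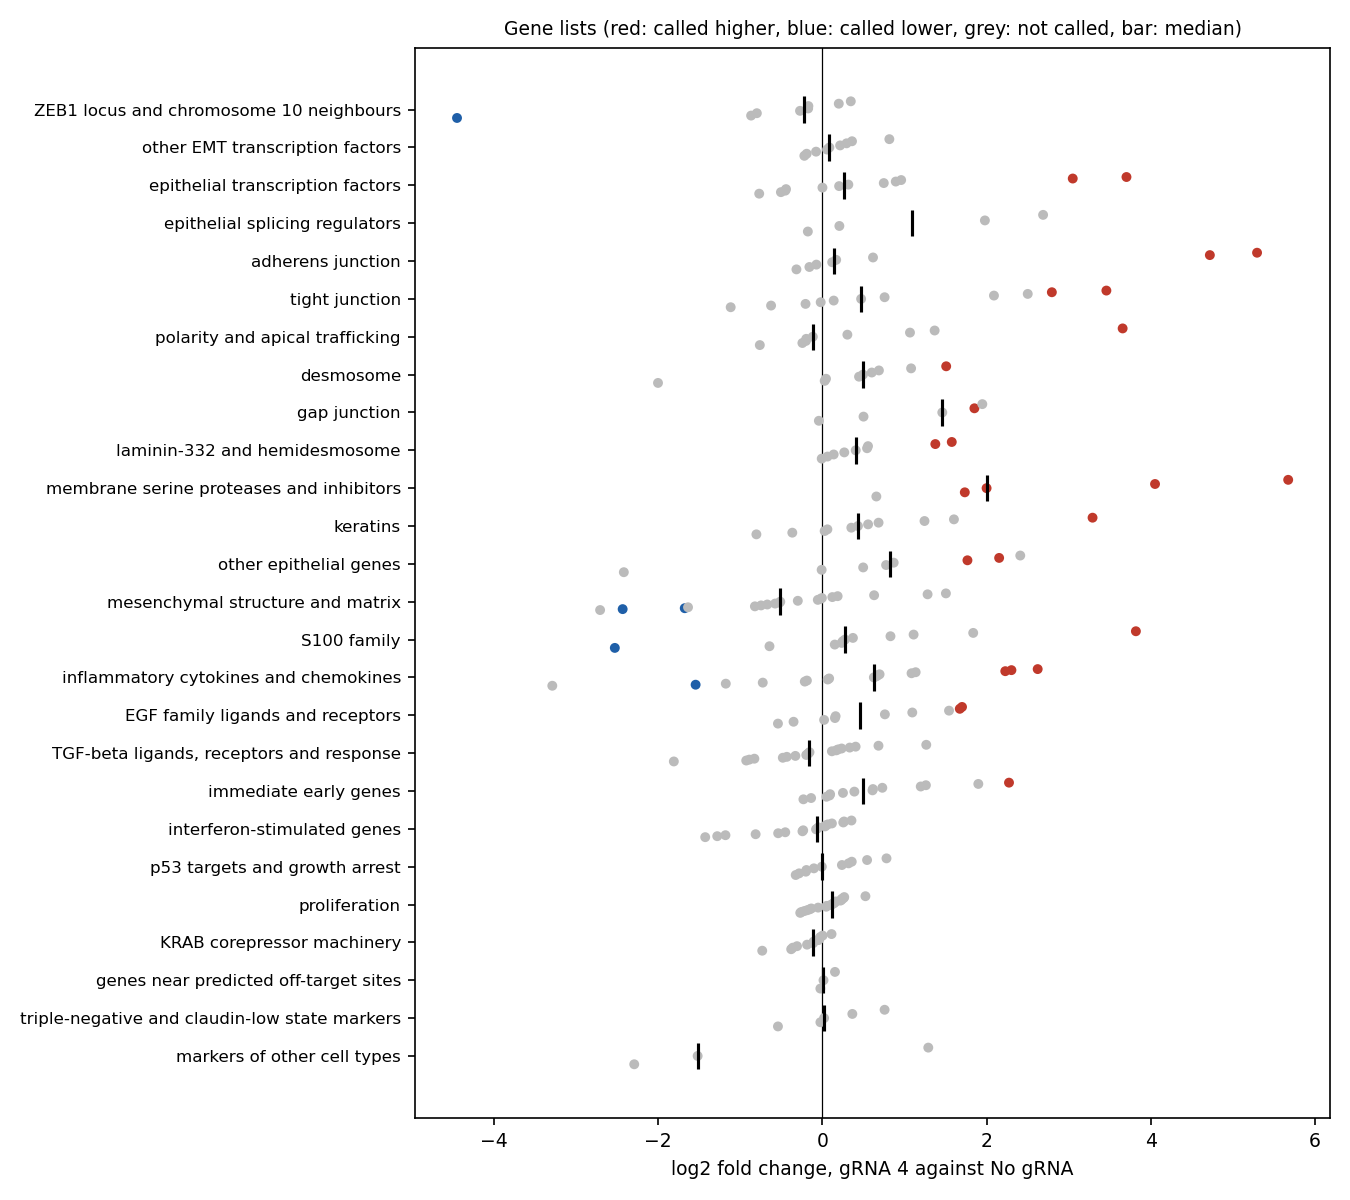
Log2 fold change of gRNA 4 against No gRNA (horizontal axis) for the tested members of the 26 gene lists (rows); each point is a gene, red where called higher, blue where called lower and grey otherwise, and the black bar is the list's median. Called rises lie in the rows from adherens junction to other epithelial genes, and also among epithelial transcription factors. The S100, cytokine, EGF family and immediate early rows hold called rises as well. The proliferation row keeps within -0.27 and 0.52. The lists were chosen with earlier results of these data known, so nothing is read from where the calls lie.

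The choice of control changed the reading of several calls, although the same gRNA 4 libraries stand on one side of both comparisons. With untransduced wild type cells as the control, TREAT called 33 of the 45 rises and 6 of the 14 falls in the same direction, and the moderated test passed 40 and 9. Over all genes tested TREAT called 1.74% higher and 0.726% lower than wild type, and the moderated test 23.2% and 23.6%. SPINT1 had a log2 fold change of 7.58 against wild type, CDH3 6.83, SPINT2 6.73, F11R 5.84, KRT6A 5.21 and EPCAM 4.87. Some called genes already differed between the controls, where TREAT called 1.04% of genes higher in No gRNA than in wild type and 0.489% lower. F11R was at a mean of 0.588 CPM in wild type and 4.65 CPM in No gRNA, a log2 fold change of 3.05 (adjusted p = 0.0048 by TREAT). COL17A1 was at 223 and 549 CPM, with 1.30 (adjusted p = 0.00389 by TREAT), and KRT6A at 13 and 47.7 CPM, with 1.92 (adjusted p = 0.0498 by TREAT). By the moderated test, which passed 21.0% of genes upward and 21.9% downward between the controls, CDH3, SPINT2, MAP7 and DSP were higher in No gRNA than in wild type, at 2.11, 2.68, 1.18 and 0.73. EMX2, AFF2, SPARC and S100A4 stood below both controls, at -2.80, -2.23, -1.75 and -1.81 against wild type.

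Signalling genes differed among themselves in this respect. CSF3, AREG and WNT7B were higher with gRNA 4 than in wild type as well, at 1.37, 0.64 and 3.14 (moderated adjusted p = 6.94e-06, 1.91e-05 and 3.59e-06). CCL20 was at 34.7, 33.0 and 35 CPM in wild type, so that gRNA 4 differed from wild type by -0.02 (moderated adjusted p = 0.845) and No gRNA was the group that stood apart. The same held for EGR1, PTGS2 and IL1B, which were at -0.08, -0.17 and 0.21 against wild type with moderated adjusted p-values of 0.439, 0.405 and 0.0625. HBEGF was lower with gRNA 4 than in wild type, at -0.86 (moderated adjusted p = 1.37e-05), although it was called higher than in No gRNA. Among the falls, LAPTM5 and ENSG00000250509 were at -0.24 and -0.10 against wild type, and ENSG00000277196 at -0.99, none past the moderated test. ENPP2 was higher with gRNA 4 than in wild type, at 0.47 (moderated adjusted p = 0.00104). CCL5 was the widest case, with wild type at 0.273 ± 0.0895 CPM (SD, n = 3), No gRNA at 21.5 ± 1.30 CPM and gRNA 4 at 7.34 ± 0.0821 CPM, a log2 fold change of 4.69 against wild type. Some listed genes that passed only the moderated test against No gRNA also passed it the other way against wild type. Of those named above as higher than No gRNA, IL1A (-1.88), CXCL8 (-1.79), LIF (-0.97), CDKN1A (-0.41), SERPINB5 (-0.31), DUSP6 (-0.27), TGFBR2 (-0.26), EREG (-0.25) and CTNNB1 (-0.23) were lower than wild type, as were TP63 and SNAI2. Of those named as lower, COL6A1 (1.14), OASL (3.56), IFIT1 (3.54), IFIT2 (2.89) and IFIT3 (2.53) were higher than wild type. The wild type cells were neither transduced nor selected, and vector and puromycin cannot be told apart in that comparison.

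**Figure D4:**
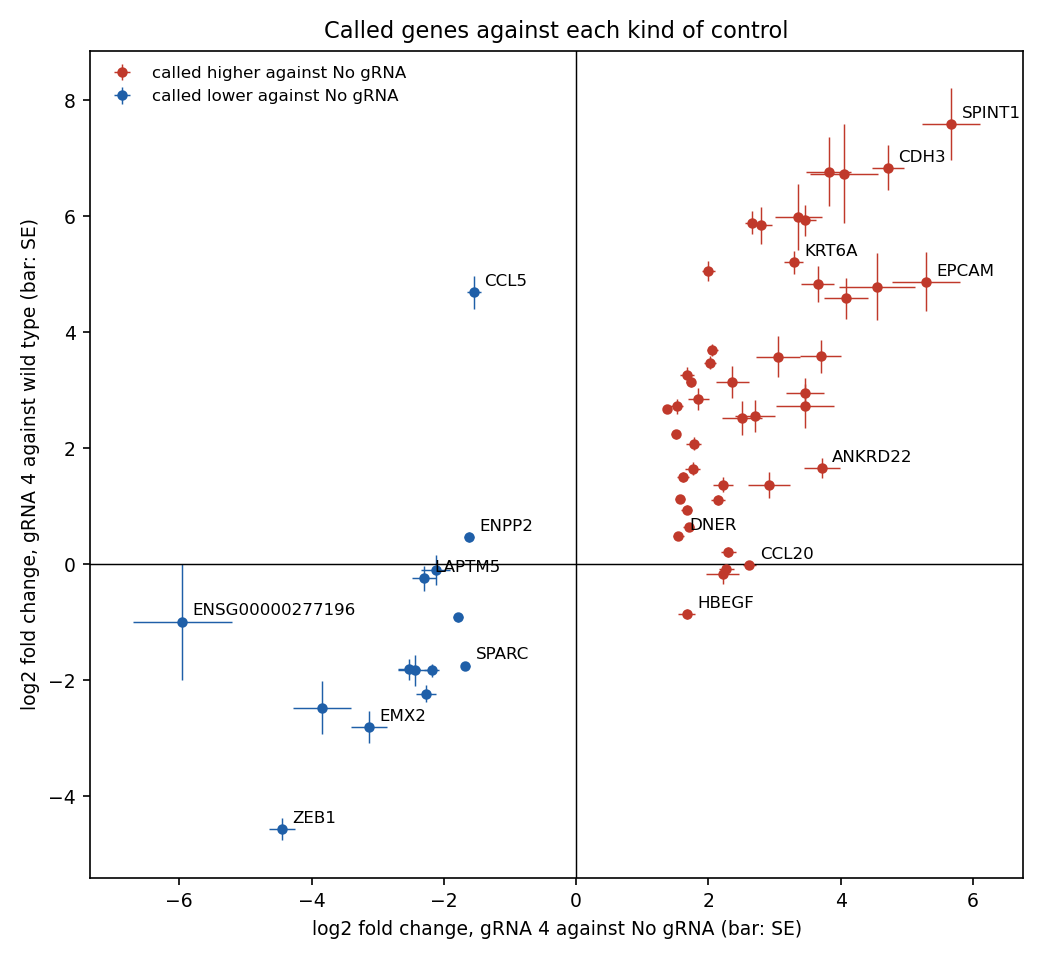
Log2 fold change of gRNA 4 against No gRNA (horizontal axis) and against wild type (vertical axis) for the 59 called genes, with bars for the standard error of each; red points were called higher and blue points lower against No gRNA, and both axes use the same gRNA 4 libraries. Points near the horizontal line at 0, such as CCL20 at -0.02 and LAPTM5 at -0.24, differed little from wild type, and CCL5 lies far above the other blue points at 4.69.

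The single gRNA was compared directly with the pool of 4. TREAT called 0 genes between gRNA 4 and All gRNA, with 32 at an unadjusted p under 0.05, while edgeR's glmTreat called 2, CD36 and ZEB1-AS1, and DESeq2 with the same threshold these and ZEB1, 3 in all, and the moderated test in limma called 143 (0.944% of genes tested), 58 higher with gRNA 4 and 85 lower. ZEB1 was at 4.40, 3.12 and 2.47 CPM with gRNA 4 and 0.786, 0.363 and 0.991 CPM with All gRNA, so that more transcript remained with the single gRNA, by 2.25 (moderated adjusted p = 0.0165). ZEB1-AS1 was at 0, 0.472 and 0.409 CPM with All gRNA, below all 3 gRNA 4 libraries (moderated adjusted p = 0.00963). SPINT1 differed between the 2 groups by 0.00 (moderated adjusted p = 0.999), F11R by 0.04 (moderated adjusted p = 0.941), MAP7 by -0.02 (moderated adjusted p = 0.983), DSP by -0.06 (moderated adjusted p = 0.758) and COL17A1 by -0.06 (moderated adjusted p = 0.582). The standard errors of these differences were 0.147, 0.108, 0.129, 0.0594 and 0.0363, which limit how small a difference could be seen.

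Of the 59 genes called for gRNA 4, 18 differed from All gRNA in the moderated test, a count that was drawn with the same gRNA 4 libraries and so is not set against the share over all genes. Among the rises, 10 were higher with the single gRNA and 2 lower. As the calls were made with the same gRNA 4 libraries, nothing is read from the directions among the rises or the falls. AQP3 was at 26.6, 29.4 and 25.4 CPM with gRNA 4 and 12.4, 11.3 and 11.8 CPM with All gRNA, a difference of 1.2 (moderated adjusted p = 2.41e-04). PI3 differed by 1.1 (moderated adjusted p = 5.48e-05), CCL20 by 0.81 (moderated adjusted p = 4.80e-04), BCL2A1 by 1.16 (moderated adjusted p = 0.0138), AQP9 by 1.31 (moderated adjusted p = 0.0282), S100A9 by 0.98 (moderated adjusted p = 0.0386), ANKRD22 by 0.94 (moderated adjusted p = 0.017), CDH3 by 0.57 (moderated adjusted p = 0.0432), SLPI by 0.52 (moderated adjusted p = 0.00932) and DNER by 0.36 (moderated adjusted p = 0.0477). LAMB3 and UGT1A6 were lower with the single gRNA, by -0.37 (moderated adjusted p = 0.0282) and -0.43 (moderated adjusted p = 0.0386). Among the falls, LAPTM5, ENSG00000250509, S100A4, NEBL and CCL5 lay further below No gRNA with gRNA 4 than with All gRNA, with differences of -1.31 (moderated adjusted p = 0.00932), -1.61 (moderated adjusted p = 0.00642), -0.99 (moderated adjusted p = 0.0366), -0.80 (moderated adjusted p = 5.25e-04) and -0.66 (moderated adjusted p = 0.0207). The 10 genes with the smallest moderated p in this comparison also held EMP1, PHGDH, PLAT, TNFRSF10D and MT1X, all lower with gRNA 4, by -0.75, -0.85, -0.61, -0.61 and -0.60, and ENSG00000247844, higher by 0.39.

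**Figure D5:**
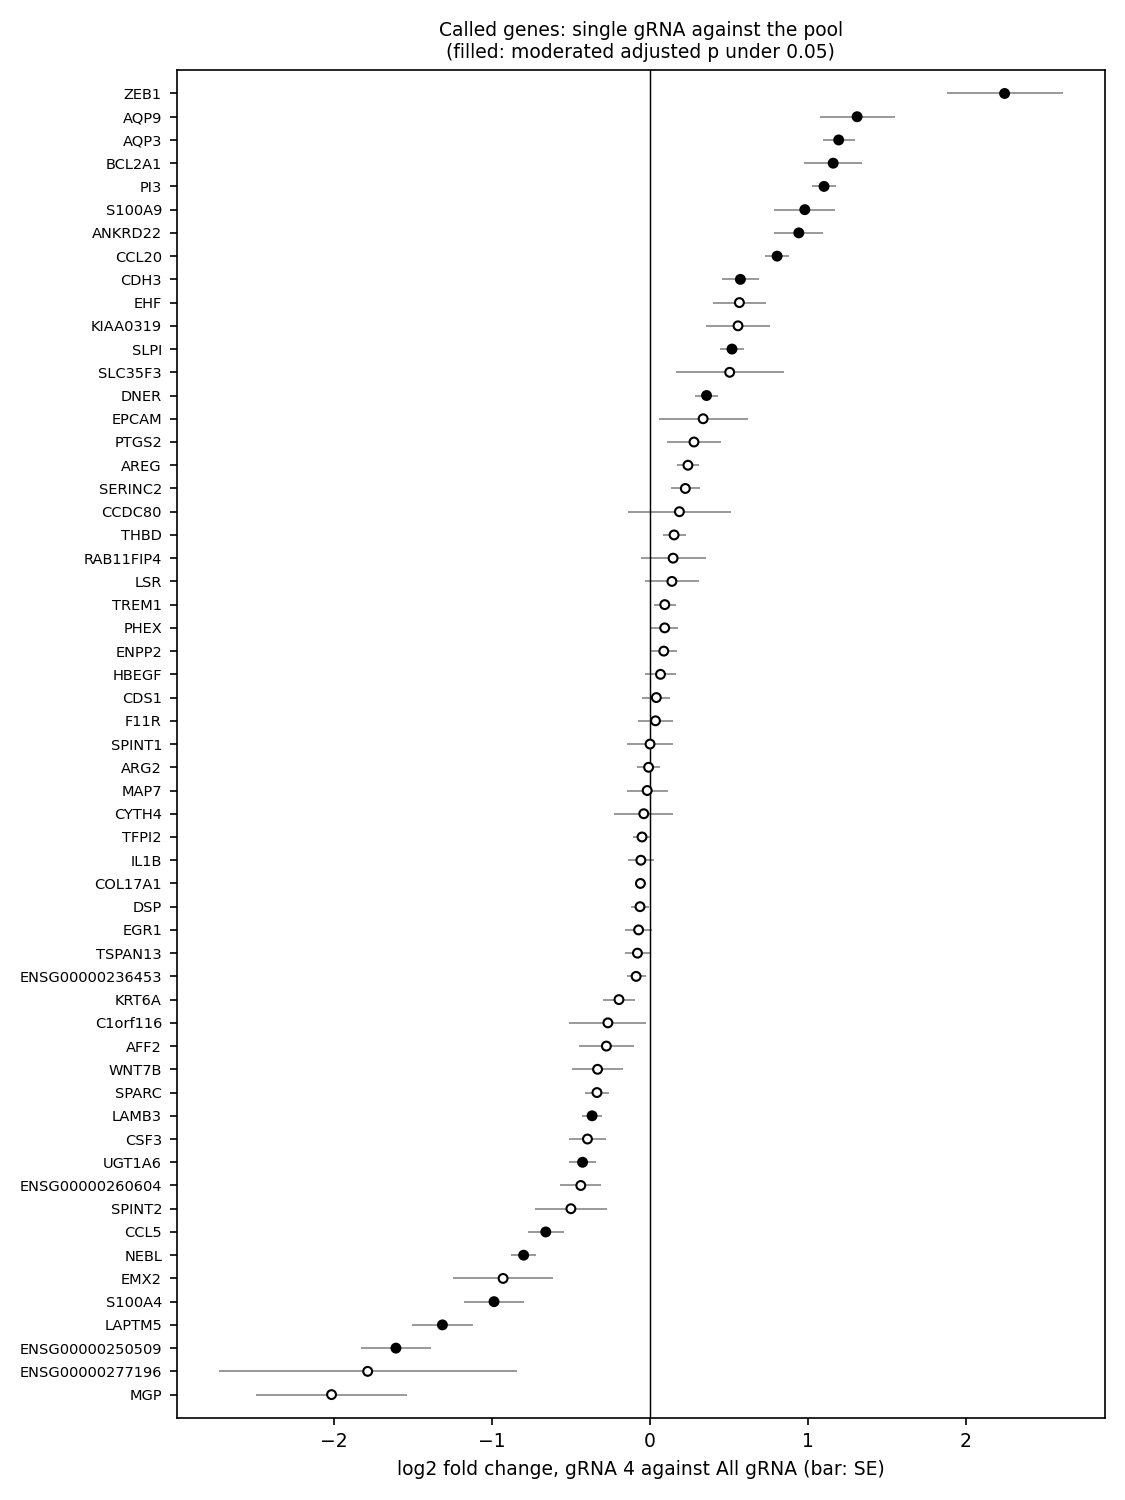
Log2 fold change of gRNA 4 against All gRNA (horizontal axis) with its standard error for 57 of the 59 genes called against No gRNA (rows, ordered by the value); filled points passed the moderated test at an adjusted p under 0.05 and open points did not. ZEB1 stands highest at 2.25, and SPINT1, MAP7 and F11R lie at the line at 0.

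A single gRNA has a single set of near matches, which were searched on both strands of GRCh38 with a following NGG. There were 0 sites with 1 or 2 mismatches, 6 with 3 and 76 with 4. The 3-mismatch site closest to a tested start is printed with its mismatched bases in capitals.
3-mismatch site in an intron of NOXA1, chr9:137424381-137424400, minus strand: agcTttAagacacaagAgag
Its middle is 997 bases from the NOXA1 start, and NOXA1 was at a mean of 1.54 CPM in No gRNA and 2.32 CPM with gRNA 4, a log2 fold change of 0.60 (moderated adjusted p = 0.264). Within 10000 bases of the 82 near matches 41 genes start, of which 11 were tested. TREAT called 0 of these, and their log2 fold changes ran from -0.37 to 0.92. The moderated test passed 1, TWIST1, at 0.82 (higher with gRNA 4), with a 4-mismatch site 5547 bases from its start. Of 16 tested genes whose start is the nearest to a near match at any distance, the moderated test passed 3, each with a 4-mismatch site. ZNF365, with the site in an intron 69080 bases from its start, was lower with gRNA 4 at -0.98 (moderated adjusted p = 0.0129), from a mean of 4.60 to 2.32 CPM. NABP1 and ZC3H12C, with sites 81619 and 52482 bases from their starts, were higher at 0.62 (moderated adjusted p = 0.00534) and 0.31 (moderated adjusted p = 0.0193). Among all genes tested TREAT called 0.390%, and the moderated test passed 6.11% upward and 4.91% downward. With so few genes near these sites, nothing is read from the counts.

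ZEB1 binds E-boxes, so the letters CACCTG, or CAGGTG on the other strand, were looked for in the RefSeq promoter sequences (GRCh38.p14, 250 bases before to 50 after the start). Of the called genes, 27 of the 45 rises and 8 of the 14 falls had an entry. The letters stood in 11 of 27 promoters of rises (40.7%) and in 4 of 8 promoters of falls (50.0%), beside 17.9% of 10915 promoters of tested genes and 20.1% of all 18938 in the table. The falls counted here include ZEB1 itself, the target of gRNA 4, whose window holds the letters. No test was made of these shares. The windows shown are examples in which no annotated exon overlaps the 250 bases printed, 3 of genes that rose and 1 of a gene that fell, with the E-box in capitals.
S100A9, chr1:153357604-153357853, plus strand: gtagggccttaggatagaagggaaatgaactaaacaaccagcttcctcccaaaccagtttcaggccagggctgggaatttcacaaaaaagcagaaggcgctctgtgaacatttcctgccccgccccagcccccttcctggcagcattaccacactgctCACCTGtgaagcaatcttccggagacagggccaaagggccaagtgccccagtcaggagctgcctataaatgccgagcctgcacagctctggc
AQP9, chr15:58137919-58138168, plus strand: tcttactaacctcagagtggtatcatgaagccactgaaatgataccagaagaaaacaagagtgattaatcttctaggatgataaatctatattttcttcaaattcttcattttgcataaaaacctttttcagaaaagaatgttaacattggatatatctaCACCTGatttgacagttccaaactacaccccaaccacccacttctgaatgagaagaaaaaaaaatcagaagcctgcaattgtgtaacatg
CDS1, chr4:84582877-84583126, plus strand: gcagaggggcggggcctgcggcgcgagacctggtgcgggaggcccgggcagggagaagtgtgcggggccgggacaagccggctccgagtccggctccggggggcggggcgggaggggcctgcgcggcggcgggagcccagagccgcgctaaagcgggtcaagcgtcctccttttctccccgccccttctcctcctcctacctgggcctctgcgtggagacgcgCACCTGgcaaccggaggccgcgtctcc
S100A4, chr1:153545807-153546056, minus strand: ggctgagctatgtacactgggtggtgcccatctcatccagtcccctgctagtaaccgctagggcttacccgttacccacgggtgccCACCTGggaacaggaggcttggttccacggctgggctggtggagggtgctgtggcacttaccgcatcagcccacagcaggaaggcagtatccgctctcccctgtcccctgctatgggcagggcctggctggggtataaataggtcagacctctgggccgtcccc
The motif begins 92 bases before the start in S100A9, 90 in AQP9, 27 in CDS1 and 164 in S100A4. In SPINT1, LSR and EHF, which had larger or similar rises, these letters are not in the window. A match is a description of the sequence and not evidence of binding, and the ZEB1 occupancy of these promoters was not measured in these libraries.

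Some calls lay close to the threshold or were lost when a single library was left out. The called genes with the largest adjusted p were PTGS2, RAB11FIP4 and PHEX, each at 0.0472, and the uncalled genes nearest to it were RSAD2 at -2.14 (TREAT adjusted p = 0.0502), EDN2 at -2.09 and SIRPB1 at 2.21 (both 0.0512). Of the 59 called genes, 39 stayed called when each of the 6 libraries was left out in turn, and 20 lost the call at least once, with adjusted p-values up to 0.320. SPINT2 lost it without any one of the No gRNA libraries (0.105 to 0.123), as did CYTH4 (0.0855 to 0.103). SLC35F3 lost it without gRNA 4 replicate 1 or 2 or No gRNA replicate 2 or 3 (0.0511 to 0.213), and C1orf116 without any library other than gRNA 4 replicate 2 (0.0564 to 0.229). AQP9 lost it without No gRNA replicate 1 or 3 (0.0655 to 0.0671), and DNER and UGT1A6 without No gRNA replicate 2 or 3 (0.0557 to 0.0650). MGP lost it without gRNA 4 replicate 1 or 2 (0.0569 to 0.0586), ENSG00000277196 without any one gRNA 4 library (0.0912 to 0.0995), and CCDC80 without gRNA 4 replicate 2 or 3 or No gRNA replicate 1 or 2 (0.0736 to 0.110). KIAA0319 lost it without any library other than gRNA 4 replicate 1 (0.0675 to 0.156), RAB11FIP4 other than No gRNA replicate 1 (0.0869 to 0.320), and HBEGF and CCL5 other than No gRNA replicate 2 (0.0739 to 0.196). PTGS2, PHEX, WNT7B and ENSG00000250509 lost it without any one library (0.0520 to 0.302). In each of these fits the direction was the same as with all libraries.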

How the data were processed

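RNA-seq libraries (50 bp single-end reads) were quantified by the authors with Salmon and summed to genes with tximport, and what they deposited is an estimated count for each gene, length-scaled and not normalized between libraries. The Salmon version, the annotation and the strandedness are not given in the sources used here, and the build named by the submitters' processing notes is GRCh38. Groups were taken from the sample labels. Identifiers of 56347 of 57165 genes were matched to GENCODE on GRCh38.

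The study names voom-limma and TREAT, and the settings given here were chosen for this work. The fit was made with voom (0.5 added to each count) and limma 3.58.1 in R 4.3.3 over the 12 SUM159 libraries of run 1 (8 residual degrees of freedom), TMM scaling, filterByExpr (minimum count 10), and TREAT (threshold 1 on the log2 scale), with p adjusted over all genes tested after Benjamini and Hochberg and a limit of 0.05. The moderated test is that fit against 0. Counts were rounded for edgeR 4.0.16 and DESeq2 1.42.0 and for intervals (scipy 1.17.1). P-values are two-sided and measure the spread between clones. The steps were tested on simulated counts.

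The comparison, gene lists and alternatives were chosen with earlier results of these data known, and the searches for near matches and E-boxes were added after the data were seen. Values in each library were given for ZEB1, ZEB1-AS1, the 15 called genes with the largest rise, the 14 that fell and others of the lists. The gRNA 4 sequence is that of the genome at its match. A few genes were counted in the tests and list totals but are not reported here.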

Additional observations from a re-analysis of the deposited data

How the results depend on the processing

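The count of 59 called genes stayed between 51 and 88 with edgeR's glmTreat (88), DESeq2 with a threshold of 1 (77), the other scalings (57 to 60), the other filters (57 and 60), sample quality weights (58) and only the 6 libraries compared (51), and the genes called kept their direction in each of these wherever tested. Tests with a lower bar gave 1668 (moderated against 0), 403 (moderated with an absolute log2 fold change over 1), 478 (TREAT at the log2 of 1.2) and 1707 (edgeR quasi-likelihood), and for listed genes 111, 56, 71 and 108 in place of 30. With wild type as the control the counts were 373 and 54, and PTGS2 (-0.17), HBEGF (-0.86), CCL20 (-0.018), EGR1 (-0.082), ENPP2 (0.47) and CCL5 (4.69) changed sign. Of these, PTGS2, CCL20 and EGR1 did not pass the moderated test against wild type. The cause was not tested. Leaving out libraries or replicate numbers gave 34 to 52 called genes, 21 to 27 listed genes and a ZEB1 log2 fold change of -4.70 to -4.26, and over all alternatives ZEB1 stayed called (adjusted p up to 4.85e-04). For gRNA 4 against All gRNA the count of 0 became 143 (moderated, 58 higher), 30 (with a log2 fold change over 1), 19 (TREAT at the log2 of 1.2), 143 (edgeR quasi-likelihood), 2 (glmTreat), 3 (DESeq2), 1 (ENSG00000272478, no filter), 2 (CD36 and SCNN1D, only the 6 libraries compared) and 0 to 1 with libraries left out (ARL2-SNX15 without gRNA 4 replicate 2). The replicate numbers were given no pairing by the labels, and the deviations of same-numbered gRNA 4 and No gRNA libraries correlated at 0.0438, 0.0344 and 0.0429, each the highest for its number, while those of same-numbered gRNA 4 and All gRNA libraries correlated at -0.0828, -0.0523 and -0.0214. With the replicate block 54 genes, 28 listed genes and 0 genes against All gRNA were called, and ZEB1 was at -4.43. Depth limits genes at a few counts, such as CDH1, EPCAM and SLC35F3.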
